A study of Mus musculus with 12 samples.

Results

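The cytosolic ribosomal protein genes of the mouse were followed by RNA sequencing in embryonic stem cells (ESCs) that lack Snap29, a SNARE protein of membrane fusion and autophagy, and in the cells these ESCs form. Genes were taken by biotype and symbol, protein-coding genes named Rpl or Rps with a number, plus Rplp0, Rplp1, Rplp2 and Rpsa. The rule found 83 genes of the 55471 measured, 51 of the large and 32 of the small subunit, and 6 of the 83 are paralogs named after a core gene (Rpl3l, Rpl7l1, Rpl10l, Rpl22l1, Rpl39l and Rps27l). The groups, 3 libraries each, were KO cells at day 14 of differentiation, WT cells at day 14, KO ESCs at day 0 and WT ESCs at day 0. All came from the J1 line of strain 129S4/SvJae. Day 0 ESCs were grown in serum with LIF, and day 14 cells spent 3 days in hanging drops without LIF and 11 days on plates. The KO carries a CRISPR/Cas9 lesion in Snap29, the study names 1 clone for the ESC libraries and none for day 14, so the clone and the genotype cannot be told apart. Values are FPKM, fragments scaled to gene length and to a library total set by the authors. That total was 1.087 to 1.101 times the fragments assigned to genes in WT cells at day 14, and 1.023 to 1.052 times in KO cells. In ESCs it was 0.998 to 1.046 times in KO and 1.004 to 1.016 times in WT. All FPKM of WT cells at day 14 are thus scaled down the most.

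Each ribosome holds a single copy of nearly every ribosomal protein, and the proteins are made in step with ribosomal RNA, which RNA polymerase I transcribes in the nucleolus, where assembly factors join both. The mRNAs of ribosomal proteins are among the most abundant in growing cells. Most begin with a cytosine and a run of pyrimidines, the 5′ terminal oligopyrimidine (TOP) motif, through which mTOR and Larp1 tune their translation. ESCs are known for high rates of ribosome assembly.

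The motif was looked for at the annotated start sites, and a few are printed since it marks the class to which these mRNAs belong. RNA level, not translation, was measured here. RefSeq starts were found for 63 of the 83 genes, and 13 of them (20.63%) read C and then at least 4 further C or T from the first transcribed base, against 813 of 27025 genes with a start (3.008%). The search used the transcribed strand only, and a start that is annotated a few bases off hides the motif: within a 20-base window around the start, 35 of the 63 genes (55.56%) held such a run, against 27.69% of all genes. With GENCODE starts the shares were 22 of 83 (26.51%) and 5.158%. In each count a gene was included if any of its annotated starts met the criterion. The following windows run from 15 bases before the first transcribed base, on the gene's strand of GRCm38.p6, and capitals mark the pyrimidine run from that base on. The first 7 are those of the 13 that passed a test involving the KO, so no link of the motif to a change can be read from them. The others of the 13, Rpl15, Rpl28, Rps15a, Rps18, Rps27 and Rps6, passed none of these tests. Of the first 7, Rpl38, Rpl35a, Rplp2 and Rps10 passed between KO and WT ESCs. Rpl35, Rpl14 and Rps21 missed the threshold between KO and WT at each day, which does not show equal levels. They passed only the test of the difference between the KO effects. The last 3 belong to paralogs without such a run from the first base on, though Rpl22l1 holds one within the 20-base window.
Rpl38, chr11:114668565-114668594, plus strand: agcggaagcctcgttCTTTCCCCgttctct
Rpl35, chr2:39005117-39005146, minus strand: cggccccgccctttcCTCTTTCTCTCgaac
Rpl35a, chr16:33056467-33056496, plus strand: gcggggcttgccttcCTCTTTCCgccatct
Rpl14, chr9:120571502-120571531, plus strand: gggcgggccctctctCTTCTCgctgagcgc
Rps21, chr2:180257364-180257393, plus strand: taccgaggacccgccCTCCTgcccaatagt
Rplp2, chr7:141447636-141447665, plus strand: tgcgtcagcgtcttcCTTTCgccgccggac
Rps10, chr17:27635230-27635259, minus strand: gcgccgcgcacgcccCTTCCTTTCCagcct
Rpl10l, chr12:66284387-66284416, minus strand: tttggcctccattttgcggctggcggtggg
Rpl39l, chr16:10170213-10170242, plus strand: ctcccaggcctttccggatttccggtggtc
Rpl22l1, chr3:28805493-28805522, plus strand: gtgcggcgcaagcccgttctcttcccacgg

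The genes were not expressed evenly. Mean FPKM over the 12 libraries spanned 1.20 to 3717, although most of the proteins stand in equal number in a ribosome. Rplp1, an acidic protein of the ribosomal stalk, was highest at 3717 FPKM, followed by Rpl36 at 1869.6 and Rps15 at 1524 FPKM. The 3 together held 16.3% of the summed FPKM of the 83 genes, and the top 20 held 53.5%. Most genes lay within a narrow band, 37 between 100 and 500 FPKM and 25 between 500 and 1000. At the other end, Rpl34, Rps10, Rpl24, Rpl29 and Rpl3l had means under 10 FPKM. Rpl3l, a muscle-restricted paralog, had 0.855 ± 0.285 FPKM in KO and 0.973 ± 0.165 in WT cells at day 14, and 1.48 ± 0.195 in KO and 1.51 ± 0.193 in WT ESCs (SD, n = 3 each), resting on 19 or more fragments per library. For the other 4, the core proteins Rpl34, Rps10, Rpl24 and Rpl29, between 22.5% and 80.1% of the 100-base windows of the transcript were identical to a window of another annotated gene. Reads from such windows also match the other gene, which may be a copy elsewhere or may overlap the same locus. The comparison did not separate these cases. How the counting treated such reads is not given in the sources used here, so the levels of these genes are uncertain. Over all 83, 36 genes shared more than 50% of their windows and 9 shared none, among them Rpl10l and Rpl39l.

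**Figure D1:**
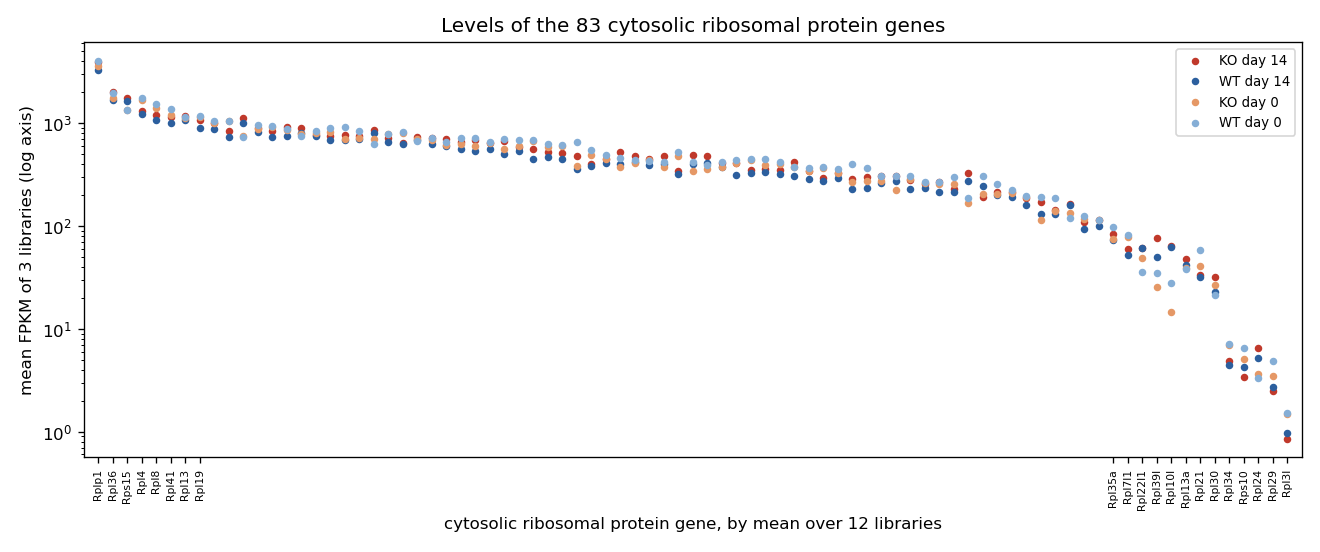
Mean FPKM (log axis) of each of the 83 genes in the 4 groups of 3 libraries, ordered by the mean over all 12 libraries, with names for genes whose mean was over 1000 or under 100 FPKM. Levels run from 1.20 FPKM for Rpl3l to 3717 FPKM for Rplp1, and the 4 groups lie close together for most genes, with wider gaps for Rpl39l and Rpl10l.

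Libraries held 16638790 to 19226488 assigned fragments, of which 7.07% to 8.17% fell on the 83 genes. This share was 7.69% in KO and 7.17% in WT cells at day 14, and 7.54% in KO and 7.998% in WT ESCs (group means). Snap29 was at 1.87 to 2.31 FPKM in KO and 8.09 to 9.88 in WT cells at day 14, and at 0.415 to 0.657 in KO and 5.51 to 6.59 in WT ESCs. Atrx, a chromatin remodeller on the X chromosome that the design did not target, was at 0.0874 to 0.146 FPKM in KO and 6.24 to 12.6 in WT cells at day 14. In ESCs Atrx stood at 0.132 to 0.178 FPKM in KO and 11.9 to 13.3 in WT, so the KO differs from WT in more than Snap29. All 8 pluripotency markers were above 1 FPKM in every group, with summed levels of 3741 to 4262 FPKM in KO and 3399 to 3560.02 in WT ESCs. WT replicate 3 at day 14 stood apart: 164 of 4966 genes over 10 FPKM were more than 2-fold off the mean of the other WT libraries, against 25 and 89 for those and 12 to 29 for the KO libraries of that day. It also had the 6.24 FPKM of Atrx, where the other 2 had 12.6.

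In ESCs, most ribosomal protein mRNAs lay slightly below WT in KO cells. On log2(FPKM + 0.1), 70 of the 83 genes had a negative change and the median change was -0.12, against -0.0043 for all 19238 genes tested and -0.01 for 844 other genes over 50 FPKM. By limma with Benjamini-Hochberg adjustment over all genes tested, at an adjusted p under 0.05, 15 genes were lower (18.1% of the 83, against 10.4% of all genes) and 1 was higher (1.2%, against 11.0%), where 21.4% of all genes passed in either direction. The libraries did not overlap in 25 genes with KO below WT and in 2 with KO above WT, against 20.0% and 19.9% of all genes. The median was -0.12 in the large subunit (10 of 51 lower) and -0.11 in the small one (5 of 32 lower). Mitochondrial ribosomal proteins, which serve the organelle's own ribosome, had a median change of 0.01 with 4 of 76 genes higher and 1 lower.

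The size of the shift differed between the KO libraries. The summed FPKM of the 83 genes was 42460.5, 47219 and 40369.5 in KO ESCs, against 46481, 46560.5 and 48632.5 in WT ESCs. KO replicate 2 thus lay within the WT range, and the others lay below it. Without KO replicate 2 the median was -0.17 and 36 genes were lower. Without KO replicate 1 or 3 the numbers were 7 and 8, and without WT replicate 2 or 3 they were 8 and 6. Values divided by the library's summed FPKM (TPM) took the median to -0.00021, but moved the median of all genes by 0.11 as well, and 5 genes were then lower. Quantile normalization gave a median of -0.0075, which was above that of all genes by 0.0029.

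The largest decreases past the test were in a paralog and in proteins of few residues. Rpl10l, the autosomal retrocopy of X-linked Rpl10 that replaces it in the male germ line (mm10 chr12:66283379-66284401, minus strand), had 14.9, 15.2 and 14.01 FPKM in KO ESCs, against 27.1, 26.6 and 29.7 in WT ESCs. All KO values were below all WT values (log2 change -0.91, SE 0.06, limma adjusted p 0.000159). Rps29, a zinc-binding protein of the small subunit (chr12:69157722-69159186, minus strand), had 358, 413 and 378 FPKM in KO ESCs, against 561, 682 and 725 in WT ESCs. The groups were again apart (-0.77, SE 0.11, adjusted p 0.00356). Rps28, a neighbour of mRNA in the exit channel of the small subunit (chr17:33819027-33824562, minus strand), had 110.1, 125 and 105 FPKM in KO ESCs, against 158, 189.5 and 222 in WT ESCs (-0.73, SE 0.13, adjusted p 0.00810). Every KO library lay below the lowest WT library. Rpl29 (-0.49), at 3.47 FPKM in KO and 4.85 in WT ESCs, and Rplp2 (-0.45), a partner of Rplp1 in the stalk, completed the 5 largest past the test. Others that were lower included Rpl39l (-0.45), Rpl37 (-0.41), Rpl35a (-0.40), Rps23 (-0.39), Rpl36a (-0.35), Rps10 (-0.33), Rpl39 (-0.31), Rpl38 (-0.30) and Rpl37a (-0.27). Of all 15, Rpl10l, Rpl39l, Rps28 and Rps29 were called in all 18 other settings tried.

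**Figure D2:**
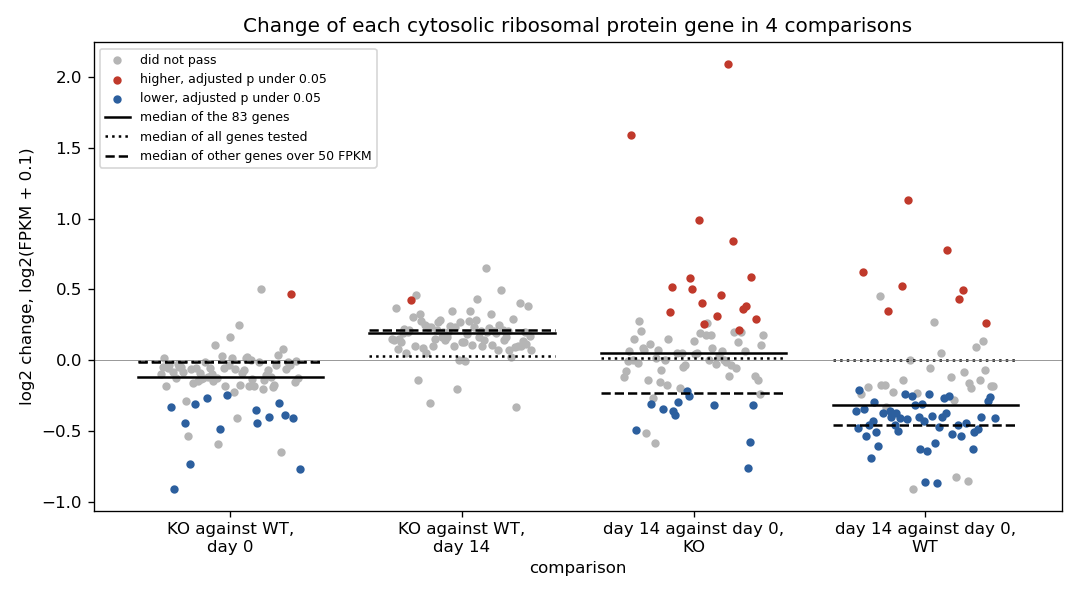
Log2 change of each of the 83 genes (points) in 4 comparisons on log2(FPKM + 0.1), red where higher and blue where lower at an adjusted p under 0.05. The solid line is the median of the 83 genes, the dotted line that of all genes tested and the dashed line that of other genes over 50 FPKM; KO ESCs and WT cells at day 14 show medians of the 83 genes below 0 (-0.12 and -0.32).

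Rpl22l1, a paralog of Rpl22 that is known to rise when Rpl22 is lost in mice, was the gene that was higher on this scale. Quantile normalization called 8 genes higher, centring on the median of the 83 genes 10, and voom 3. Rpl22l1 had 46.5, 57.7 and 43.1 FPKM in KO ESCs, against 34.6, 31.9 and 39.5 in WT ESCs (0.47, SE 0.12, adjusted p 0.0365). The call was lost in 6 of 18 settings, among them without KO replicate 1 or 2. Rpl22 itself had a change of -0.03 (SE 0.06, adjusted p 0.767), at 191, 209 and 178 FPKM in KO ESCs, against 193, 195 and 201 in WT ESCs.

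The medians differed between classes of coding length, which were set after the values were seen and overlapped, with no test between them. Of the 11 genes with a coding sequence under 300 bases (Rpl41, Rpl39, Rpl39l, Rps29, Rps28, Rpl38, Rps21, Rps27l, Rps27, Rpl37a and Rpl37), all 11 had a negative change and 7 were lower, with a median of -0.31. The 47 genes from 300 to under 600 bases had a median of -0.10 with 7 lower, and the 25 of 600 bases or more had -0.07 with 1 lower, Rpl10l, whose decrease was the largest of all. The summed FPKM of the 11 was 4398, 4969 and 4174 in KO ESCs, against 5207, 5625 and 6237 in WT ESCs, so the WT libraries spread widely too. For comparison, 121 other abundant genes under 400 bases had a median of -0.01, with 16 higher and 17 lower.

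Some genes of the machinery that makes ribosomes were lower in KO ESCs, to be read against 10.4% of all genes lower and 11.0% higher. Of 39 small subunit assembly factors, 12 were lower and 1 higher, with Utp14a (-0.47), Nop56 (-0.28) and Nob1 (-0.29) lower and Utp6 (0.23) higher, and the list's median was -0.11. Of 32 large subunit factors, 8 were lower (Gnl3 -0.29, Nol9 -0.36, Sbds -0.23) and 0 higher by limma (1 at an unadjusted p under 0.05, 1 by voom), and the median was -0.09. Among 16 translation factors whose mRNAs carry TOP motifs, 4 were lower, such as Eif3f (-0.31), and 0 higher by limma (0 at an unadjusted p under 0.05, 0 by voom), with a median of -0.12. Larp1, which binds TOP mRNAs, was lower at 22.0 ± 1.27 FPKM in KO against 27.6 ± 1.36 in WT ESCs (SD, n = 3 each). In the list of mTOR and TOP regulators voom called 2 genes higher and 3 lower (0 and 4 at an unadjusted p under 0.05 by limma). Mycn, a transcription factor that drives genes of ribosome synthesis, was lower at 44.0 ± 0.453 FPKM in KO, against 98.6 ± 2.52 in WT ESCs (-1.16, adjusted p 1.87e-05). In the list of Myc genes voom called 1 higher and 4 lower. The part of Mycn in the lower levels was not tested.

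At day 14 most of the 83 genes had higher values in KO than in WT cells. The change was positive in 78, the median was 0.19 (-0.01 after quantile normalization), against 0.03 for all 20506 genes tested, and 42 genes did not overlap between the groups with KO above WT, none with KO below (15.1% and 11.4% of all genes). Only Rps29 passed the test (1 higher gene, 1.2% of the 83, against 1.45% of all genes, and 0 lower, against 0.883%, with 2.34% of all genes past it in either direction). Unadjusted p values were under 0.05 for 24 genes that were higher and 0 that were lower, and voom called 0 in each direction. Rps29 had 469, 491 and 490.4 FPKM in KO cells, against 361, 368 and 349 in WT cells. The groups were clear of each other (0.43, SE 0.08, limma adjusted p 0.0482), and the call held in 5 of the 18 other settings. Rpl39l had 78.1, 73.8 and 79.5 FPKM in KO cells, against 60.6, 42.6 and 45.6 in WT cells (0.65, SE 0.14, adjusted p 0.0642).

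Other gene groups had like medians. The 846 other genes over 50 FPKM had a median of 0.21, with 347 above WT in all 3 KO libraries. The mitochondrial ribosomal proteins had 0.25, proteasome subunits 0.25 and subunits of respiratory complex I 0.34. TPM moved the median of all genes by -0.11 at day 14, and that of the 83 genes to 0.05. How many genes passed depended on WT replicate 3: without that library 14 were higher and 1 lower, and with weights for library quality 29 were higher and 1 lower. With any one KO library or WT replicate 2 left out, 0 were higher by limma. The median without WT replicate 3 was 0.19.

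Markers of several cell types were present at day 14, at sums that differed between the genotypes for most lists. The 7 cardiac muscle markers summed to 209 to 281 FPKM in KO and 33.5 to 101 in WT cells, with 4 and 5 of the 7 above 1 FPKM. Voom called 1 of these 7 higher in KO and 0 lower. The 6 placental markers summed to 136 to 159 FPKM in KO and 235 to 439.5 in WT cells, with 2 and 5 of the 6 above 1 FPKM. The 7 endoderm and yolk sac markers summed to 2.32 to 2.57 FPKM in KO and 6.59 to 29.4 in WT cells. The 6 fibroblast and matrix markers summed to 76.3 to 86.3 FPKM in KO and 128 to 139 in WT cells. The 6 neural markers overlapped, at 15.8 to 20.6 FPKM in KO and 16.7 to 23.7 in WT cells. The 8 pluripotency markers summed to 3046 to 3556 FPKM in KO and 2153 to 2936 in WT cells. These sums hide decreases: from day 0 to day 14 voom called 7 of the 8 lower and 1 higher in each genotype. No marker of these lists was at 0 in either group. Fewer cells of a type and less RNA per cell cannot be told apart in such bulk samples, and the part of the cell mixture in the levels of ribosomal proteins was not tested.

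**Figure D3:**
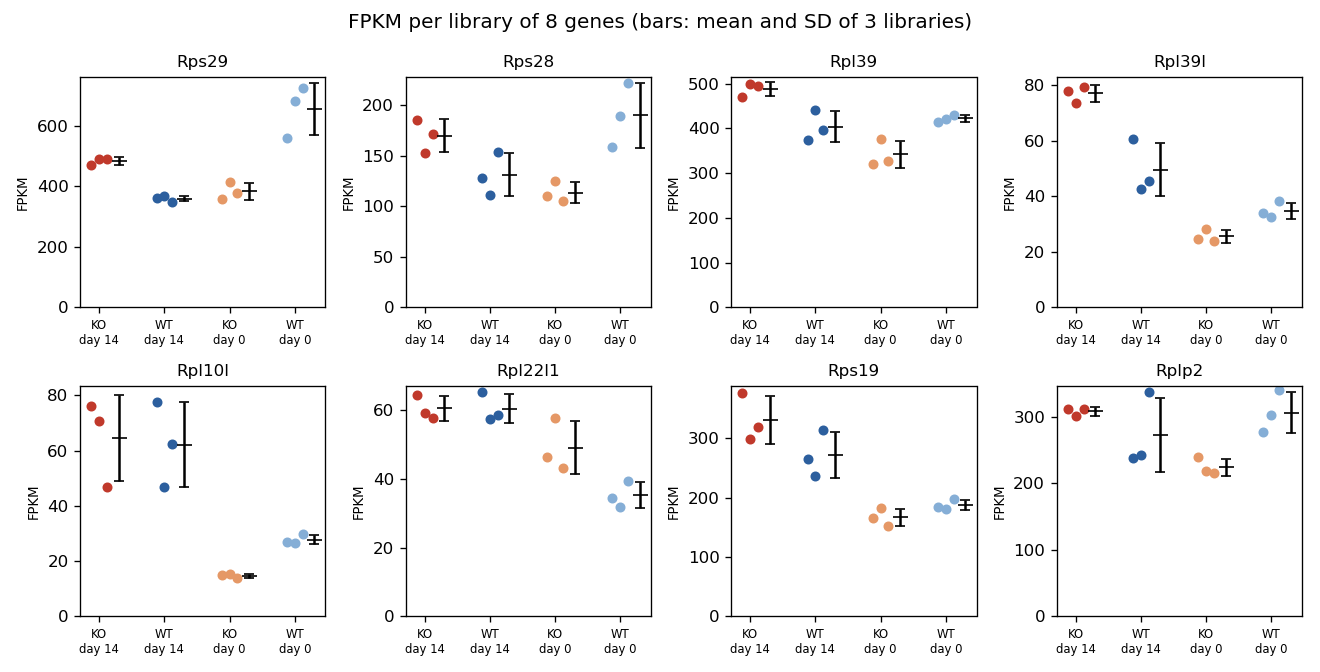
FPKM per library (points) of Rps29, Rps28, Rpl39, Rpl39l, Rpl10l, Rpl22l1, Rps19 and Rplp2 in KO and WT cells at day 14 and at day 0, with mean and SD of 3 libraries. Rps29 and Rps28 are lowest in KO ESCs and in WT cells at day 14, Rpl39l and Rpl10l are highest at day 14 in both genotypes, and Rplp2 in WT replicate 3 at day 14 (337 FPKM) lies apart from the other WT libraries (239 and 243).

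In differentiating KO cells some ribosomal protein mRNAs were higher and some lower. Comparing day 14 with day 0, 17 genes were higher (20.5% of the 83, against 33.5% of all genes) and 12 were lower (14.5%, against 29.8%), while 63.3% of all genes passed in either direction, and the median was 0.05, against 0.01 for all 20347 genes and -0.23 for other genes over 50 FPKM. Among genes past the test, the largest increases were in Rpl10l, Rpl39l, Rps19 and Rpl24. Rpl10l had 76.0, 70.7 and 47.0 FPKM at day 14, against 14.9, 15.2 and 14.01 at day 0 (2.10, SE 0.17, adjusted p 5.11e-05). Rpl39l had 78.1, 73.8 and 79.5 FPKM at day 14, against 24.7, 28.1 and 23.9 at day 0 (1.59, SE 0.07, adjusted p 3.93e-06). Rps19 had 376, 299 and 318 FPKM at day 14, against 165, 182 and 153 at day 0 (0.99, SE 0.11, adjusted p 0.000191). Day 14 values of the 3 genes were above all day 0 values. The 5 largest decreases past the test were in Rpl3l (-0.76), Rps10 (-0.58), Rpl34 (-0.49), Rpl7l1 (-0.39) and Rpl4 (-0.36). The number of lower genes was 6 without KO replicate 2 of day 14 and likewise without KO replicate 1 or 2 of day 0. The balance rested on scale: TPM gave 21 higher and 21 lower genes, quantile normalization 20 and 24, and centring on the median of the 83 genes 12 and 41.

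Most ribosomal protein mRNAs had lower FPKM in WT cells at day 14 than at day 0. At day 14 relative to day 0, 48 genes were lower (57.8% of the 83, against 26.4% of all genes) and 8 higher (9.64%, against 29.0%), while 55.5% of all genes passed in either direction, and the median change was -0.32, against 0.00 for all 20326 genes. Other genes over 50 FPKM had a median of -0.46, and mitochondrial ribosomal proteins had -0.45 with 50 of 76 lower. The 5 largest decreases past the test were in Rpl29 (-0.87), Rps29 (-0.86), Rpl34 (-0.69), Rpl7l1 (-0.64) and Rpl37 (-0.63). Rplp0, which anchors the stalk and is often used as a reference gene, had 422, 418 and 510.2 FPKM at day 14, against 678, 702 and 696 at day 0 (-0.63, SE 0.10, adjusted p 0.00151). Rpl4, an essential protein of the exit tunnel, fell to 1243, 1289 and 1177 FPKM at day 14, against 1778, 1788 and 1759.6 at day 0 (-0.52). These genes were below every day 0 library in every day 14 library. The count of lower genes rested on scale. TPM gave 5 lower genes and a median of -0.10, with the median of all genes moved by 0.21. Quantile normalization put the median of the 83 genes above that of all genes by 0.12. Voom, scaled to the summed fragments in place of the authors' total, called 39 genes lower and 9 higher.

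Of the 6 paralogs, 3 rose in WT cells (Rpl10l, Rpl22l1 and Rpl39l) and 3 fell (Rpl7l1 -0.64, Rpl3l -0.59 and Rps27l -0.29). Rpl10l had 77.5, 46.7 and 62.4 FPKM at day 14, against 27.1, 26.6 and 29.7 at day 0 (1.13, SE 0.18, adjusted p 0.00161). Rpl22l1 had 65.3, 57.4 and 58.7 FPKM at day 14, against 34.6, 31.9 and 39.5 at day 0 (0.78, SE 0.10, adjusted p 0.000655). Rpl39l rose by 0.49 (adjusted p 0.0224). These 3 that rose were above every day 0 library in each day 14 library. Core proteins that rose included Rpl24 (0.62), Rps19 (0.53), Rpl23a (0.35) and Rps15 (0.26). Rps19, of which mutations are a frequent cause of Diamond-Blackfan anaemia in humans, had 265, 236 and 314 FPKM at day 14, against 185, 180.3 and 198 at day 0.

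Of the 17 genes that rose in KO cells 8 rose in WT cells, which was all 8 of the WT list, and all 12 that fell in KO cells were among the 48 that fell in WT cells. Of the other 36 that fell in WT cells, 33 did not pass in KO cells and 3, Rps29, Rps28 and Rpl38, were higher there, and all 3 passed the test of the difference between the KO effects. Rps29 rose in KO cells to 469, 491 and 490.4 FPKM at day 14, against 358, 413 and 378 at day 0, and fell in WT cells to 361, 368 and 349 at day 14, against 561, 682 and 725 at day 0. The days were apart in both genotypes, in opposite directions.

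Transcripts of the ribosome assembly machinery fell at day 14 in both genotypes. In KO cells 31 of 32 large subunit factors were lower (median -0.85), as were 38 of 39 small subunit factors (median -0.84), 10 of 10 nucleolar and snoRNP proteins (median -1.23) and 11 of 14 subunits and factors of RNA polymerase I (median -0.89), with Polr1d of the last list higher (0.42). In WT cells the numbers were 32 of 32 (-1.08), 38 of 39 (-1.12), 10 of 10 (-1.58) and 12 of 14 (-0.99). Of all genes, 29.8% were lower in KO and 26.4% in WT cells. Nol6, a factor of the small subunit processome, was at 15.3 ± 0.347 FPKM at day 14 and 44.7 ± 1.01 at day 0 in KO cells, and at 15.9 ± 0.803 and 48.4 ± 0.845 in WT cells at these days (SD, n = 3 each). Tcof1, which aids transcription of ribosomal RNA genes, fell by 2.20 on the log2 scale in WT cells. Ubtf, which binds the ribosomal DNA promoter, fell by 1.54 in KO and 1.63 in WT cells. Mycn fell by 1.55 in KO and 2.49 in WT cells. In the list of Myc genes voom called 2 higher and 4 lower in KO cells, and 2 higher and 3 lower in WT cells. The lists' medians were below the median of the 83 genes in both genotypes, and no test was made between the lists.

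**Figure D4:**
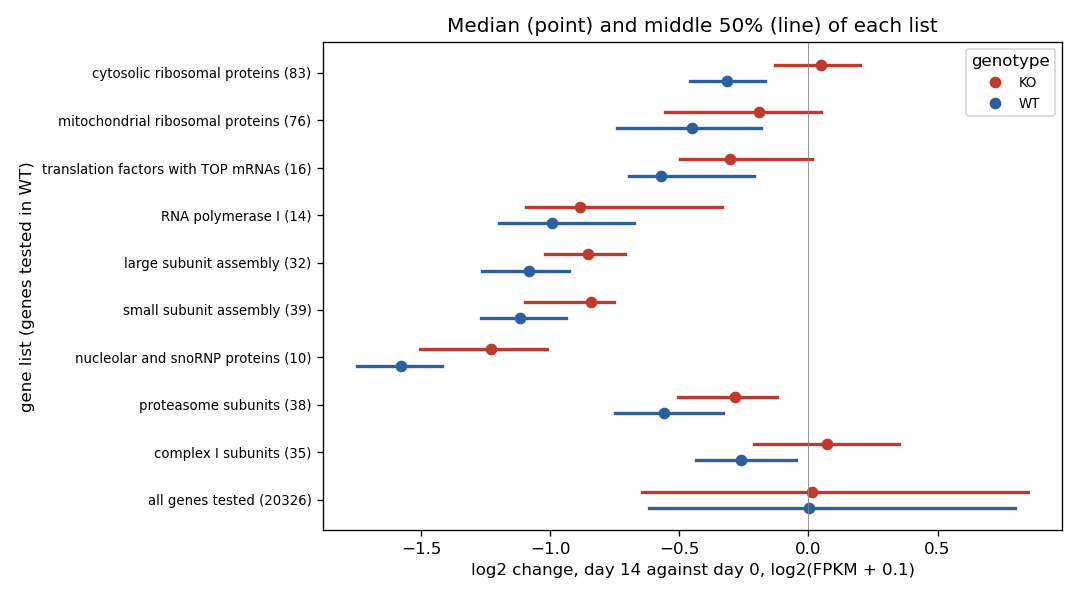
Median (point) and middle 50% (line) of the log2 change from day 0 to day 14 in KO (red) and WT (blue) cells for ribosomal proteins, other lists and all genes tested, with the number of genes tested in WT. The 83 cytosolic ribosomal proteins have medians of 0.05 in KO and -0.32 in WT cells, and the assembly lists lie between -0.84 and -1.58.

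The KO effect at day 14 minus that at day 0 was fitted on all 12 libraries, to test whether the KO effect differed between the days. With a positive difference 15 genes passed the test (18.1% of the 83, against 4.22% of all genes), and with a negative one 0 (against 2.91%). In either direction 7.13% of all genes passed. The median was 0.28 (-0.0021 after quantile normalization), against 0.02 for all 22913 genes. Unadjusted p values were under 0.05 for 48 positive and 1 negative difference, and voom called 12 and 1. The largest were in Rps29 (1.20, SE 0.13, limma adjusted p 0.000734), Rps28 (1.11, SE 0.20, adjusted p 0.00906), Rpl39l (1.10, SE 0.17, adjusted p 0.00427), Rpl37 (0.76, SE 0.13, adjusted p 0.00767) and Rpl38 (0.74, SE 0.12, adjusted p 0.00557). The smallest that passed were in Rpl35 (0.49), Rps27l (0.46), Rpl36a (0.42), Rpl14 (0.41) and Rpl9 (0.39). Positive differences were common elsewhere: other genes over 50 FPKM had a median of 0.21, mitochondrial ribosomal proteins 0.26 and proteasome subunits 0.25. With TPM the median of the 83 genes was 0.02 and 5 genes were called positive and 1 negative, on a scale that moved all genes by -0.22. Without WT replicate 3 of day 14, 34 passed with a positive difference, and without KO replicate 2 of day 0, 23. The number was 8 to 10 without any one of KO replicate 1 or WT replicate 2 of day 14, KO replicate 1 or 3 of day 0, or any WT library of day 0.

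By class of coding length, this difference carries over the day 0 values on which the classes were set and is no second observation of them. Of the 11 genes under 300 bases 9 passed, with a median of 0.74. The median was 0.28 for the 47 genes from 300 to under 600 bases (5 passed) and 0.24 for the 25 longer ones (1 passed). Of all genes, 4.22% passed with a positive difference. The 2 short genes that did not pass were Rpl41 (0.41, adjusted p 0.117) and Rps27 (0.92, adjusted p 0.414). At day 14 alone the short genes had a median of 0.38, and the 122 other abundant genes with coding sequences under 400 bases had 0.34. In the difference between days those 122 had 0.35, beside -0.01 at day 0. Rpl37, in both the day 0 list and this one, had 268, 299 and 253 FPKM in KO ESCs, against 332, 350.4 and 409 in WT ESCs. At day 14 it had 305, 277 and 315 FPKM in KO cells, against 244, 221 and 238 in WT cells. The gap was clear of overlap at both days and ran in opposite directions. RNA quality and fragment size were not measured in these files, and their part was not tested.

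**Figure D5:**
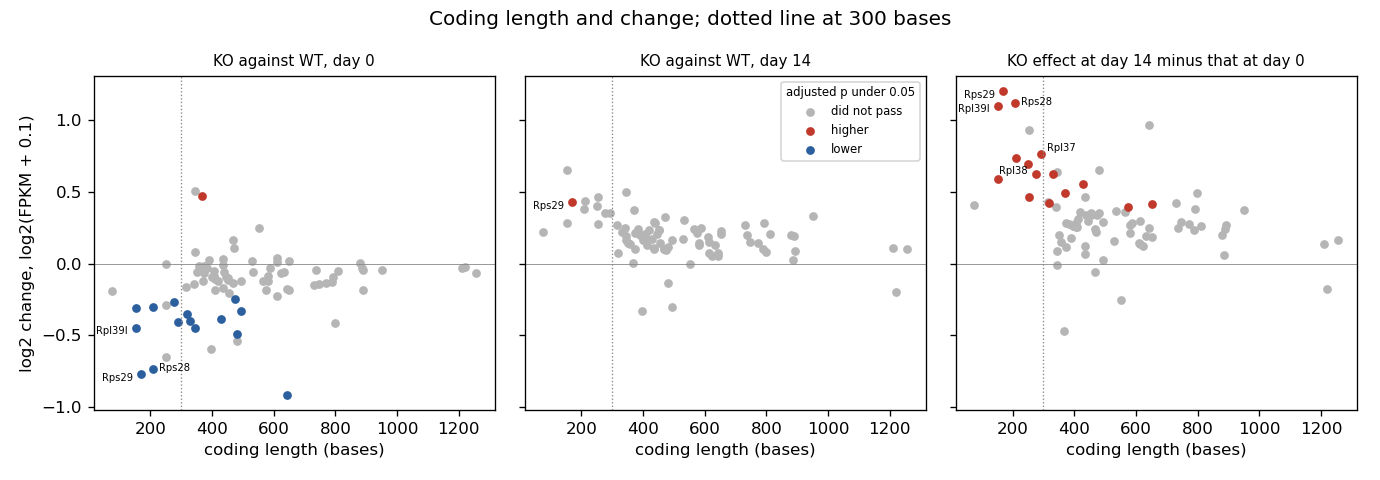
Log2 change of each of the 83 genes against its coding length in bases, for KO against WT ESCs (left), KO against WT cells at day 14 (middle) and the difference between these effects (right), red or blue where the adjusted p was under 0.05 and with the dotted line at 300 bases. The 11 genes left of the line have medians of -0.31, 0.38 and 0.74, and Rps29, Rps28 and Rpl39l lie farthest from 0 in the right panel.

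The paralogs differ from their partners in sequence, but not every pair can be read apart from other genes. Rpl39l, Rpl10l, Rpl3l and Rps27l shared 0% of their windows with another gene, whereas Rpl22l1 shared 50.8%, mostly with Gm15421. Among the partners, Rpl39 shared 1.75%, but Rpl3 shared 79.4%, Rpl10 91.6% and Rps27 98.4%, so the levels and pair shares that rest on Rpl22l1 or on these 3 partners are uncertain. Rpl39l and Rpl39 encode tunnel proteins of the same length, Rpl39l (chr16:10170226-10174911, plus strand) being known from the testis and from ESCs in mice, and Rpl39 lying at chrX:37082520-37085402 on the minus strand. Over the 153 coding bases without the stop, 130 were identical (84.97%). Both are given with differing bases in capitals, as they show that the reads of these genes can be separated.
Rpl39l, chromosome 16: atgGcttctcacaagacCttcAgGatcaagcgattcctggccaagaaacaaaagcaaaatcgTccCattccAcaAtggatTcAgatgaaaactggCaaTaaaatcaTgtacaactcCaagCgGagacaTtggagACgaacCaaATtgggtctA
Rpl39, chromosome X: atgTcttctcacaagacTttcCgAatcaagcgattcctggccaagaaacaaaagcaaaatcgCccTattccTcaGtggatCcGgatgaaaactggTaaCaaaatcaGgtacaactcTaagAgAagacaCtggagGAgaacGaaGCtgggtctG
Identity over coding bases was 84.74% for Rpl10l and Rpl10, 76.19% for Rps27l and Rps27, 73.14% for Rpl3l and Rpl3, 66.93% for Rpl22l1 and Rpl22, and 52.74% for Rpl7l1 and Rpl7.

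Rpl39l made up 14.2%, 12.9% and 13.8% of the summed FPKM of the pair in KO cells at day 14, against 13.96%, 8.81% and 10.3% in WT cells. In ESCs the share was 7.14%, 6.95% and 6.80% in KO, against 7.56%, 7.17% and 8.15% in WT. The shares were higher at day 14 in all libraries of both genotypes, and between the genotypes they overlapped at day 14 but not at day 0, where KO lay below WT. Rpl39 itself rose in KO cells to 470.2, 500.3 and 495 FPKM at day 14, against 321, 376 and 328 at day 0 (0.52, adjusted p 0.00133). In WT cells Rpl39 had 373, 441 and 397 FPKM at day 14, against 414, 422 and 430.3 at day 0 (-0.07, limma adjusted p 0.514), and the KO effects of the days differed (0.59, adjusted p 0.0122).

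Rpl10l made up 13.9 ± 3.28% of its pair with Rpl10 in KO and 13.99 ± 3.23% in WT cells at day 14. In ESCs it made up 2.91 ± 0.106% in KO and 4.78 ± 0.178% in WT (SD, n = 3 each). The shares did not overlap between the genotypes in ESCs and overlapped at day 14. Rpl10l itself had a KO effect of 0.05 at day 14 (SE 0.24, limma adjusted p 0.919), and the difference between these effects missed the threshold (0.97, SE 0.27, adjusted p 0.0560). Rpl22l1 made up 24.4 ± 2.23% of its pair in KO and 27.6 ± 1.85% in WT cells at day 14, and 20.3 ± 1.22% in KO and 15.2 ± 1.18% in WT ESCs. The difference of the KO effects on Rpl22l1 was -0.47 (SE 0.16, adjusted p 0.104), one of 5 negative values among the 83. Rpl7l1, an assembly factor related to Rpl7, was lower at day 14 in both genotypes and did not pass in either KO comparison. Rps27l, a target of p53, was at 46.3% to 72.8% of the pair in KO and 52.1% to 70.02% in WT cells at day 14.

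The stalk and the group that binds Mdm2 hold 3 genes each, too few to set against the 21.4% of all genes that passed between the genotypes in ESCs and the 2.34% at day 14. The 3 stalk genes had negative changes in KO ESCs, and only Rplp2 passed, at 239, 218 and 216 FPKM in KO, against 277, 303 and 339 in WT ESCs (-0.45, SE 0.08, adjusted p 0.0111). At day 14 Rplp2 had 311, 300.6 and 312 FPKM in KO cells, against 239, 243 and 337 in WT cells, so the third WT library was above the KO ones. Rplp1 had 4202, 3703 and 3855 FPKM in KO and 3290.4, 3095 and 3532 in WT cells at day 14, and 3551, 4031 and 3327 in KO and 4065, 3854 and 4102 in WT ESCs. None of its comparisons between genotypes passed. Rpl5, Rpl11 and Rpl23, which hold back Mdm2 when ribosome assembly is disturbed, did not pass in either KO comparison (changes of -0.18 to -0.06 at day 0 and of 0.09 to 0.30 at day 14). Rpl5 and Rpl11 fell in differentiating WT cells (-0.41 and -0.32), and Rpl23 rose in KO cells (0.41, adjusted p 0.00544). Of 18 genes linked to Diamond-Blackfan anaemia in humans, 4 were lower in KO than in WT ESCs, where 10.4% of all genes were. At day 14 relative to day 0, 3 were higher and 1 lower in KO cells (33.5% and 29.8% of all genes), and 1 was higher and 12 lower in WT cells (29.0% and 26.4% of all genes).

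A few genes varied widely between replicates. The coefficient of variation within groups, averaged over the 4 groups, had a median of 5.63% over the 83 genes and exceeded 20% in 6, Rpl17, Rpl21, Rps27, Rps27a, Rpl30 and Rpl29. Rps27 had 171, 471 and 227 FPKM in KO and 130.5, 261 and 302 in WT cells at day 14, and 249.8, 388 and 162 in KO and 383, 297 and 530.2 in WT ESCs. No group stood clear of another, and 98.4% of its windows were shared, mostly with Rps27rt. Rps27a had 195, 314 and 521 FPKM in KO and 407, 384 and 164 in WT cells at day 14, and 499, 483 and 448 in KO and 514, 524 and 535 in WT ESCs. Among the 54 genes that shared at least 25% of windows 5 exceeded 20%, and among the 29 others 1 did (Rpl21, whose sequence recurs in 40 other genes). Genes under 25% had a median of -0.10 in KO against WT at day 0 with 8 of 29 lower. Those above had -0.12 with 7 of 54 lower, where 10.4% of all genes were lower.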

How the data were processed

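Poly-A RNA of 12 samples was sequenced, 3 for each combination of genotype and day, and grouped by GEO's labels. Per the paper and the labels, the authors mapped reads to mm10 with HISAT2 2.0.5, counted them per gene with featureCounts 1.5.0-p3 and computed the deposited FPKM values from counts and gene lengths, and DESeq2 served their own tests. The annotation release, strandedness and handling of reads with several matches are not given in the sources used here. FPKM × gene length gave whole fragments (within 0.001) in 100% of values, from which depth was read.

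Changes were fitted with limma 3.58.1 (R 4.3.3; lmFit, eBayes with trend) on log2 values after adding 0.1, keeping any gene that reached 0.1 FPKM in 3 libraries of its fit, with Benjamini-Hochberg adjustment over all genes tested and a threshold of 0.05. All 83 genes passed this filter in every fit. A change on this scale understates that of low genes. Replicates are described as biological, and whether they were separate cultures is not given in the sources used here, so p values measure the spread between libraries, which may be technical. The fit was tested on simulated data. Sequences were taken from RefSeq (GRCm38.p6) and GENCODE vM21, one transcript a gene.

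Genes named were the 5 with the largest and smallest change among those past the test, paralogs with partners, the 3 highest and lowest, stalk proteins, Rpl5, Rpl11, Rpl23, up to 3 per other list and direction, and others for the counts given. Some genes are counted but not reported here by name. Members and lists were chosen with earlier results of these data known. Other pseudocounts, filters, scalings, fits and left-out libraries were tried.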

Additional observations from a re-analysis of the deposited data

Results flagged for a closer look

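For 15 genes the KO effect at day 14 differed from that at day 0 by the interaction term over all 12 libraries (limma, adjusted p under 0.05), which is why they are listed. The differences, all positive on the log2 scale, were 1.20 in Rps29, 1.11 in Rps28, 1.10 in Rpl39l, 0.76 in Rpl37, 0.74 in Rpl38, 0.69 in Rps21, 0.62 in Rpl35a, 0.62 in Rpl37a, 0.59 in Rpl39, 0.56 in Rps23, 0.49 in Rpl35, 0.46 in Rps27l, 0.42 in Rpl36a, 0.41 in Rpl14 and 0.39 in Rpl9. Rps29, Rps28, Rpl39l and Rpl37 were called in all 23 other settings tried for this comparison. Rps21, Rpl35a and Rps27l were called in 7 of 23.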

How the results depend on the processing

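Values are log2 medians or numbers of genes called, with KO against WT at day 0 written as D0, at day 14 as D14, day 14 against day 0 in KO and in WT as KO diff and WT diff, and the difference of the KO effects as INT. Scaling decided most. Quantile normalization gave at D0 8 higher genes, a median of -0.0075 and a median minus that of all genes of 0.0029, at D14 0 higher, -0.014 and -0.019, in WT diff 13 lower, -0.084 and 0.120, in KO diff 24 lower and 0.167, and in INT 6 positive, 2 negative, -0.0021 and -0.0054. It turned Rps27l (0.147) and Rps15 (0.160) positive at D0. TPM gave at D0 5 lower and -0.00021, at D14 0 higher and 0.046, in WT diff 5 lower and -0.098, in KO diff 21 lower, and in INT 5 positive, 1 negative and 0.022. Median ratio scaling gave 0 higher at D14 and -0.208 in WT diff. Voom on the fragments gave at D0 3 higher and 35 lower, at D14 0 higher and 0.116, -0.201 in WT diff, and 1 negative and 0.181 in INT. Centring on the members' median, which fixes that median by construction, gave 10 higher at D0, 0 at D14, 9 lower in WT diff, 41 lower in KO diff, and 4 positive and 12 negative in INT, with Rps27l at 0.148 and Rps15 at 0.142 at D0, Rpl11 at -0.150 in KO diff and Rpl3 at -0.295 in INT.

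Without a filter 0 genes were higher at D0 and 0 at D14, 7 were lower in KO diff, and the WT diff median minus that of all genes was -0.398. A filter at 1 FPKM gave 5 higher at D14, -0.260 for that difference and 25 positive in INT. A pseudocount of 1 gave 0 higher at D14, all 4 groups in one fit 11, and array weights 29 higher and 1 lower at D14 and 44 positive and 1 negative in INT. The replicate block gave 0 higher and 7 lower at D0, 0 higher at D14, 4 lower in KO diff and 8 positive in INT. Same-numbered libraries did not deviate together at D14 (r = -0.399, -0.0975 and -0.626), so the numbers were not read as pairs.

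Leaving out 1 library gave at D0 0 to 1 higher, 6 to 36 lower, a median of -0.170 to -0.0606 and a median minus all genes of -0.165 to -0.0544. At D14 the ranges were 0 to 14 higher, 0 to 1 lower, 0.172 to 0.211 and 0.141 to 0.182. In WT diff they were 6 to 9, 35 to 58, -0.337 to -0.284 and -0.347 to -0.221, in KO diff 12 to 22, 6 to 12, 0.0113 to 0.101 and -0.0319 to 0.139, and in INT 8 to 34, 0, 0.245 to 0.342 and 0.219 to 0.323. Where the cause of a change is not given by the setting itself, it was not tested. The split by coding length, by shared windows and the subtraction of the all-gene median were chosen after seeing the data.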
